A study of Rattus norvegicus with 10 samples.

Results

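Cyclic AMP (cAMP) is made from ATP by adenylyl cyclases and broken down by phosphodiesterases, and much of its action runs through protein kinase A (PKA). PKA is a complex of regulatory and catalytic subunits that A-kinase anchoring proteins hold at particular places in the cell. Once freed, the catalytic subunits act on many substrates, among them the transcription factors CREB and CREM, while the exchange factor Epac (Rapgef3) carries a separate branch to the small GTPase Rap1. In chondrocyte-like cells such as those of the disc, cAMP is known as a messenger of parathyroid hormone-related peptide and of some prostaglandin E receptors.

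The genes described here are 56 members of this pathway, each with 1 probeset, among 23188 probesets tested. They were chosen by gene symbol: the adenylyl cyclases (Adcy), the phosphodiesterases (Pde) with a letter from a to d, the PKA subunits (Prkac, Prkar), the anchoring proteins (Akap), and Gnas, Rapgef3, Rapgef4, Creb1, Crem, Crebbp and Crtc1 to Crtc3. The set was taken up because of the measured difference of Adcy8 in the comparison described here, so Adcy8 is given as a description with no test, and counts over the set are read as descriptions. Of 64 symbols that match the rule in the RefSeq table of rat assembly GRCr8, 8 (Adcy9, Akap11, Akap17b, Akap8-ps1, Crtc3, Pde11a, Pde6c and Rapgef4) had no named probeset in the table used here and were not analysed here. All 56 members held values that no other probeset shared.

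The measurements come from cultured cells of the rat nucleus pulposus, the gel-like core of the intervertebral disc, taken from male Sprague Dawley rats of 300 g, given as 3 to 4 months old. In the 5 ShCtrl samples (arrays 1 to 5) the cells carried a control hairpin in the lentiviral vector pLKO.1, and in the 5 ShBNIP3 samples (arrays 6 to 10) a lentiviral hairpin against Bnip3, a mitophagy receptor, with RNA taken at day 4 after transduction. Both groups had thus been transduced, no untransduced cells were measured, and the labels give neither the number of hairpins nor the source of each sample. Tests therefore weigh differences against the spread of these samples alone, and that spread may be technical if samples shared a culture or an animal. A passage on mouse discs in the labels' extraction text was not used, since the samples are from rats. Levels are log2 values as deposited, and since probesets differ in response, levels of different genes are not set against each other.

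Bnip3 itself lay between 13.94 and 15.97 on the ShCtrl arrays and between 10.59 and 12.68 on the ShBNIP3 arrays, with no overlap (log2 difference -3.21, SE 0.40, limma adjusted p = 0.00020, exact two-sided permutation p = 0.0079, the smallest that 5 against 5 can give). ShCtrl array 4 and ShBNIP3 array 10 stood apart from their groups. Their mean Pearson correlations with the other arrays of the group over all probesets were 0.983 and 0.986, against 0.992 for each of the others, and results are given with and without them where they matter. Of 16 measured markers of the nucleus pulposus, 7 were at background on all arrays, among them the keratins Krt8, Krt18 and Krt19 and the notochordal factor Tbxt. The chondroid markers Acan and Col2a1 were above background on every array, and Col2a1 fell (log2 -0.67, SE 0.16, limma adjusted p = 0.013). In this list 4 markers fell, Bnip3 itself among them, and 1 rose. Without arrays 4 and 10, 6 fell and 2 rose. On array 4, 5 of the 16 lay more than 1 above the mean of the other ShCtrl arrays. The log2 of the list's summed level was 15.7 to 17.7 in ShCtrl and 15.1 to 15.7 in ShBNIP3. That sum includes Bnip3, the gene the hairpin targets, and is not a measure of the other markers alone.

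Some markers of other cells moved too, and their part in the results below was not tested. Beside the counts here and in the nucleus pulposus list, 7.61% of all probesets were higher and 7.87% lower. In bulk samples, fewer cells of a type and less RNA per cell cannot be told apart. Smooth muscle and pericyte markers had 3 of 8 lower and 0 higher in limma (3 and 1 at an unadjusted p under 0.05), with a summed log2 level of 15.7 to 16.4 in ShCtrl and 14.9 to 15.3 in ShBNIP3. Fibroblast and annulus markers had 4 of 8 lower and 0 higher (4 and 0 unadjusted; 19.94 to 20.04 against 19.54 to 19.82). Macrophage and leukocyte markers had 3 of 11 higher and 0 lower (3 and 0 unadjusted; 11.03 to 11.76 against 11.96 to 13.24). Of these 11, 9 were at background on all arrays, Ptprc, Csf1r and Adgre1 among them, and 1 was above it on all arrays. The 3 higher were thus not all clear of background, and the counts and sum show no general rise of these markers. Schwann and neural markers had 1 of 9 lower, S100b, and 0 higher (2 and 0 unadjusted; 9.76 to 10.2 against 9.06 to 9.96), with Sox10, Mbp and Rbfox3 at background on all arrays. None of 9 endothelial markers was called in either direction (1 higher and 0 lower unadjusted; 8.44 to 8.59 against 8.37 to 8.95), and Pecam1 and Cdh5 were at background on all arrays. Without arrays 4 and 10, smooth muscle and pericyte markers had 3 lower and 2 higher. Fibroblast and annulus markers then had 3 and 0, macrophage and leukocyte markers 1 and 3, and Schwann and neural markers 1 and 0. On array 4, 4 of the 8 smooth muscle and pericyte markers lay more than 1 above the mean of the other ShCtrl arrays.

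In the set as a whole, 28 members lay above the background limit on all 10 arrays, 18 were under it on all 10, and 10 were under it on some; the limit is the 95th percentile of 23 antigenomic background probesets and lay between 6.50 and 6.78 by array. Of all probesets, 41.9% were above it on all arrays. Of the 55 members other than Adcy8, 8 (14.5%) had a limma adjusted p under 0.05, 4 higher and 4 lower in ShBNIP3, against 15.5% of all probesets (7.61% higher and 7.87% lower), a share near the background that is no result about the set. The median log2 difference was 0.00 over the members and 0.02 over all probesets. A measured difference of at least 2-fold was called for 2 of the 55, Prkar1b and Adcy2, the latter against values at background (4.18% of all probesets), and the groups did not overlap for 5 (12.9% of all probesets). Without arrays 4 and 10 there were 14 called, 7 higher and 7 lower (19.9% of all probesets), of which 7 were among the 8.

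**Figure D1:**
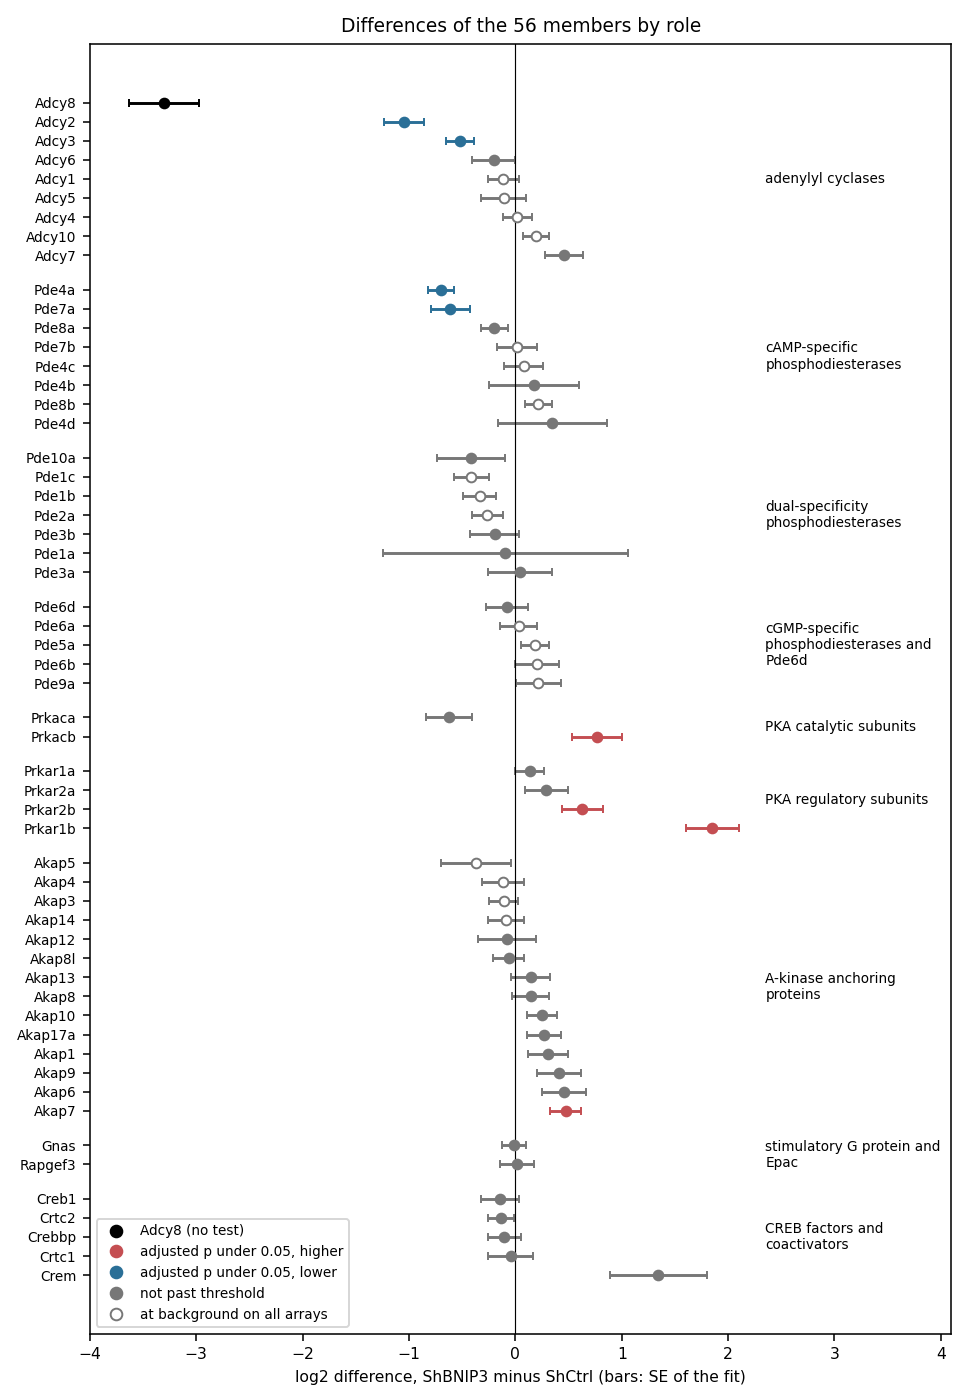
Log2 difference (ShBNIP3 minus ShCtrl, horizontal axis) of the 56 members, listed by role, with bars for the standard error of the fit. Adcy8 is lowest at -3.31 and Prkar1b highest at 1.85, most of the others lie close to 0, Pde1a has the longest bar (SE 1.15), and open circles mark the 18 members at background on all arrays.

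The cAMP response element, the site that CREB and CREM bind, is shown here in the windows of Crem, because Crem is itself a member and a CREB-responsive gene. RefSeq windows of 300 bases (250 before to 50 after an annotated start, GRCr8) were found for 45 of the 56 members, 61 windows in all. The element TGACGTCA, the same on both strands, was in 3 of these windows (4.92%) and in 612 of 33469 windows of all genes (1.83%). The core TGACG, searched on both strands and also counted inside the full element, was in 18 member windows (29.5%) and in 21.2% of all. Median GC content was 59.7% over the member windows and 51.7% over all, and its part in these shares was not tested. The 3 windows with the full element were 2 of the 3 Crem windows and 1 of Akap17a. Both Crem windows lie downstream of the other, on the plus strand of chromosome 17. Crem is known to have an internal promoter with such elements, which gives the short repressor ICER, and the table does not say whether these windows are that promoter. Capitals mark the elements and cores. The window at chr17:58985240-58985539 holds the full element at bases 216 to 223 and at bases 290 to 297, and that at chr17:58984547-58984846 at bases 195 to 202. The window of the upstream start, chr17:58933816-58934115, holds cores alone. Neither of the 2 Prkar1b windows holds an element or a core. Of these, chr12:20625674-20625973, plus strand, is given for comparison, since Prkar1b had the largest rise among the tested members.
Crem, chr17:58985240-58985539: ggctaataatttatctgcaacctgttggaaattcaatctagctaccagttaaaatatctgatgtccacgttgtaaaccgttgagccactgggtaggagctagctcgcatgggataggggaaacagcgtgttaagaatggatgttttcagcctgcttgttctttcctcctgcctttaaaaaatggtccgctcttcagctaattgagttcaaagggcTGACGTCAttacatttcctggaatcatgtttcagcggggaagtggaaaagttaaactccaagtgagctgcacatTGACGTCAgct
Crem, chr17:58984547-58984846: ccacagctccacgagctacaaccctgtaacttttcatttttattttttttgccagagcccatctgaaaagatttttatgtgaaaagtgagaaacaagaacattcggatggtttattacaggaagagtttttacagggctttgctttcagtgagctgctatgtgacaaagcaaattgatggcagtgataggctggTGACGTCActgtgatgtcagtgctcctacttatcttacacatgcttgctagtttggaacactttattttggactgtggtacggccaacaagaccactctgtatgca
Crem, chr17:58933816-58934115: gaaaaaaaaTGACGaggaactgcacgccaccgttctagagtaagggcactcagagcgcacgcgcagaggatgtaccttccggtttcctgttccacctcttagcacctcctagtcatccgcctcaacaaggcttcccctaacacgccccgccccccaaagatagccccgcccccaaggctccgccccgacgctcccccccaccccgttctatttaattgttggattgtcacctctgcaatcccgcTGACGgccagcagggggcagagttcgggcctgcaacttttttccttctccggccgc
Prkar1b, chr12:20625674-20625973: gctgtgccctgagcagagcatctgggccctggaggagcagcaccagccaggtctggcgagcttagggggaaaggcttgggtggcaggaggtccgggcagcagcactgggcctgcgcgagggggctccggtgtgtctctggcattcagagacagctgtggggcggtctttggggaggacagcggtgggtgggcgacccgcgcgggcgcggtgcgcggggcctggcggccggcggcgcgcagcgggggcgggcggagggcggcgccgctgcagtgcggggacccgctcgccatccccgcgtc

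A match is a run of letters and shows no binding, and windows of one gene are not independent. Of the 8 called members, 6 had a window, 10 windows in all. The full element was in 0 of the 5 windows of members that rose and in 0 of the 5 of members that fell, and the core in 1 (Prkacb) and 2 (both of Pde4a, which had 4 windows).

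Of the 8 adenylyl cyclases other than Adcy8, 2 were lower and 0 higher in ShBNIP3 (2 and 1 with limma's p under 0.05 before adjustment), beside 7.87% of all probesets lower and 7.61% higher. These are the enzymes that make cAMP. Adcy8, a cyclase stimulated by calcium and calmodulin, stood at 10.66, 10.77, 10.39, 9.01 and 10.86 on ShCtrl arrays 1 to 5 and at 7.41, 7.46, 6.53, 7.20 and 6.57 on ShBNIP3 arrays 6 to 10. Every ShBNIP3 value lay below every ShCtrl value, array 4 was the lowest control, and arrays 8 and 10 were under the background limit. Group means were 10.3 ± 0.76 for ShCtrl and 7.03 ± 0.45 for ShBNIP3 (SD over 5 arrays), and the difference of -3.31 (log2, SE 0.33) corresponds to 10.1% of the ShCtrl level. Without arrays 4 and 10 the difference was -3.52 (SE 0.20). With arrays at background, the fold understates the change.

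Adcy2, a cyclase that G protein beta-gamma subunits and protein kinase C stimulate, was near background throughout. Its levels were 6.83, 6.70, 6.49, 7.27 and 6.61 in ShCtrl and 5.38, 5.51, 5.58, 5.94 and 6.25 in ShBNIP3. The groups did not overlap, all 5 ShBNIP3 arrays and 1 ShCtrl array were under the limit, and the fall (log2 -1.05, SE 0.19, limma adjusted p = 0.0024) is bounded at at least 1.06-fold. Adcy3, the cyclase best known from olfactory and primary cilia, was at 7.68, 7.93, 7.77, 7.81 and 8.09 in ShCtrl and at 7.54, 7.54, 7.26, 7.19 and 7.14 in ShBNIP3. These groups did not overlap either, all arrays were above background, and the fall was 1.43-fold (log2 -0.52, SE 0.13, limma adjusted p = 0.015). Both calls held in all 10 fits with 1 array left out (adjusted p at most 0.0087 for Adcy2 and 0.042 for Adcy3).

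The remaining cyclases did not pass. Adcy7, another isoform that beta-gamma subunits stimulate, had values from 7.27 to 8.14 in ShCtrl and from 7.78 to 8.50 in ShBNIP3 (log2 0.46, SE 0.18, limma adjusted p = 0.11). On arrays 4 and 10 it lay 0.61 and 0.54 below the mean of the other 4 arrays of its group, and it was called without both (0.45, SE 0.14, limma adjusted p = 0.039) and without array 10 alone (adjusted p = 0.038). Adcy6, an isoform that calcium inhibits, was above background on every array, from 9.58 to 10.17 in ShCtrl and from 9.28 to 10.47 in ShBNIP3 (log2 -0.21, 95% interval -0.64 to 0.23). Adcy1, Adcy4, Adcy5 and the soluble, bicarbonate-activated Adcy10 were at background on all arrays, so no fold is given.

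**Figure D2:**
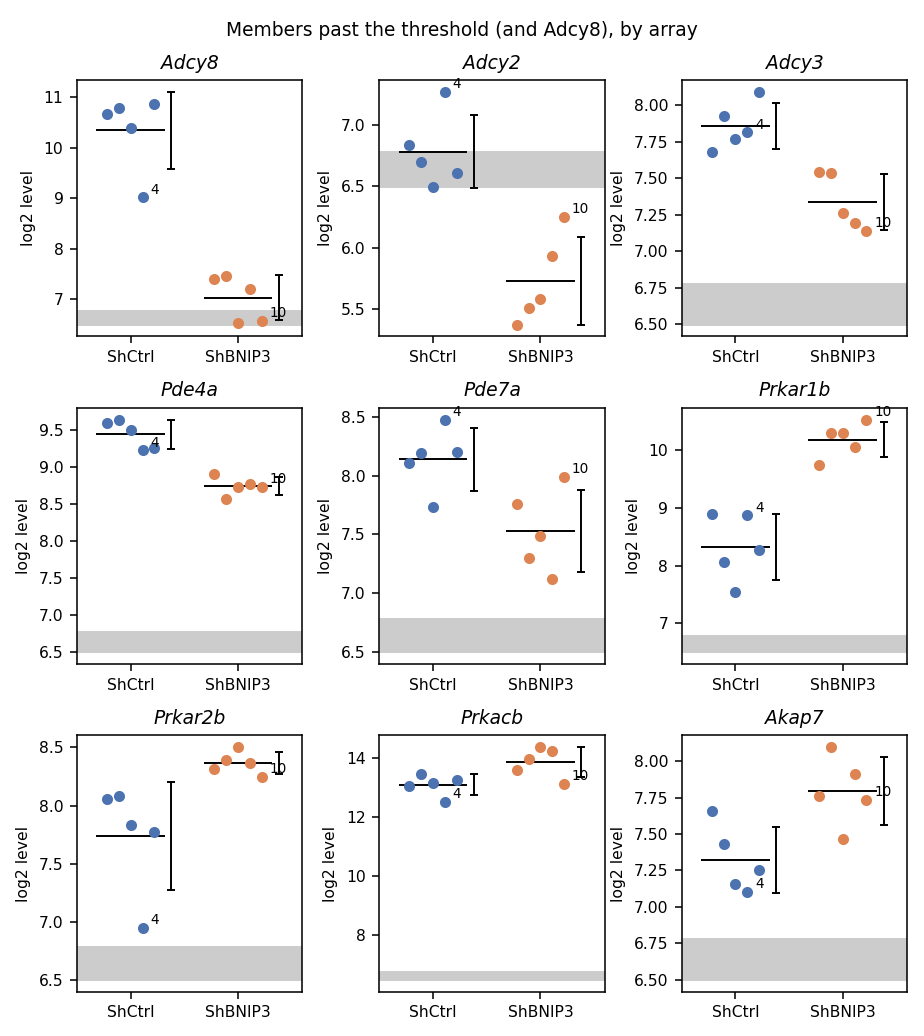
Log2 level by array (vertical axes, each panel on its own scale) of Adcy8, shown with no test, and of the 8 members with a limma adjusted p under 0.05; lines are group means, bars 1 SD of 5 arrays, grey bands the background limits of the arrays (6.50 to 6.78), and arrays 4 and 10 are numbered. Adcy8, Adcy2, Adcy3, Pde4a, Prkar1b and Prkar2b show no overlap between groups, while Pde7a, Prkacb and Akap7 overlap.

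Phosphodiesterases that act on cAMP alone had 2 of 8 lower and 0 higher (2 and 0 with limma's p under 0.05 before adjustment). Of all probesets, 7.87% were lower and 7.61% higher. Pde4a, of the rolipram-sensitive PDE4 family, was at 9.59, 9.64, 9.50, 9.23 and 9.25 in ShCtrl and at 8.91, 8.57, 8.74, 8.77 and 8.73 in ShBNIP3. The groups did not overlap, and the fall was 1.62-fold (log2 -0.70, SE 0.12, limma adjusted p = 0.0020), at most 0.0075 with 1 array left out. Pde7a, a rolipram-insensitive enzyme, was at 8.10, 8.19, 7.73, 8.48 and 8.20 in ShCtrl and at 7.76, 7.30, 7.49, 7.12 and 7.99 in ShBNIP3. These groups overlapped, and the fall of 1.53-fold (log2 -0.61, SE 0.18, limma adjusted p = 0.039) was lost in 7 of 10 fits with 1 array left out (without array 1, 2, 4, 5, 7, 8 or 9, adjusted p at most 0.097). Pde8a, a high-affinity enzyme, had values of 11.20 to 11.60 in ShCtrl and 10.99 to 11.49 in ShBNIP3 (log2 -0.20, 95% interval -0.48 to 0.08). Pde4c, Pde7b and Pde8b were at background on all arrays.

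The PDE4 genes Pde4b and Pde4d differed more within groups than between them. Pde4b was at 13.15 on ShCtrl array 4 and 13.33 on ShBNIP3 array 10, while the other 8 arrays lay between 11.02 and 11.90. Pde4d was at 7.95 on array 4 and 9.67 on array 10, with the others between 6.35 and 7.31. The differences between groups were 0.18 (SE 0.42, limma adjusted p = 0.86) for Pde4b and 0.35 (SE 0.52, limma adjusted p = 0.75) for Pde4d, and 0.18 and 0.01 without these arrays. The same 2 arrays were thus the highest of their groups for both genes.

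Phosphodiesterases that act on both cAMP and cGMP had none of 7 called in limma (0 higher and 2 lower at an unadjusted p under 0.05), and 3 of them, Pde1b, Pde1c and Pde2a, were at background on all arrays. Pde1a, which calcium and calmodulin activate, had the widest range of any member. Its levels were 5.47, 5.99, 6.17, 11.99 and 6.33 in ShCtrl and 5.36, 6.00, 7.18, 6.96 and 9.99 in ShBNIP3. Array 4 was 6.00 and array 10 was 3.62 above the mean of the other 4 arrays of its group. The group difference was -0.09 (SE 1.15, limma adjusted p = 0.98), and 0.38 (SE 0.35, limma adjusted p = 0.52) without both.

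Pde10a, best known from the striatum, was at 6.59, 6.60, 6.62, 7.21 and 6.79 in ShCtrl and at 5.89, 6.04, 5.72, 6.31 and 7.76 in ShBNIP3. Array 10 was the highest of all 10, the other 4 ShBNIP3 arrays and 3 ShCtrl arrays were under the background limit, and the difference was -0.41 (SE 0.32, limma adjusted p = 0.47). It was called lower without arrays 4 and 10 (limma adjusted p = 0.0062) and without array 10 alone (adjusted p = 0.0080), but every remaining ShBNIP3 array was then at background and most controls too, so the fall is bounded at at least 1.04-fold without array 10 and no fold is given without both. Pde3a and Pde3b, which cGMP inhibits, were under the background limit on all arrays but array 4, where they reached 6.94 and 7.46. Pde1c, at background on all arrays, was called lower without arrays 4 and 10 (-0.49, SE 0.15, limma adjusted p = 0.041) and without array 4 alone, within the background range.

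Of the enzymes specific for cGMP, Pde5a, the photoreceptor subunits Pde6a and Pde6b, and Pde9a were at background on all arrays, and none of these or Pde6d was called in limma (0 higher and 0 lower at an unadjusted p under 0.05). Pde6d is a prenyl-binding protein, not an enzyme, and was above background on every array (9.40 to 10.16 in ShCtrl, 9.20 to 10.15 in ShBNIP3).

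**Figure D3:**
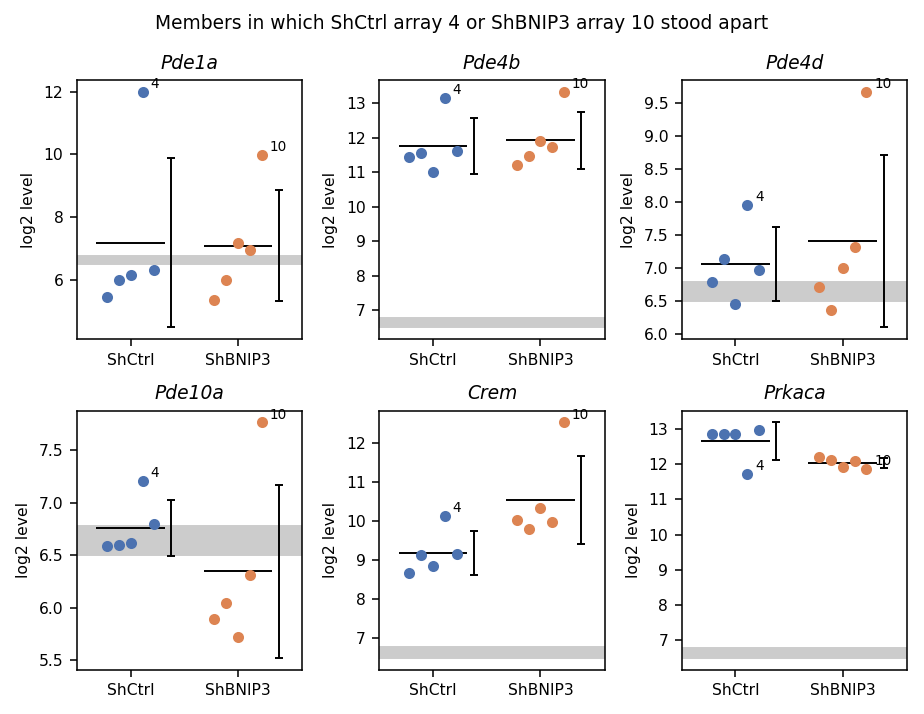
Log2 level by array (vertical axes, each panel on its own scale) of 6 members in which ShCtrl array 4 or ShBNIP3 array 10 was far from its group; lines are group means, bars 1 SD of 5 arrays, grey bands the background limits. Pde1a reaches 11.99 on array 4 and 9.99 on array 10, Crem 12.52 on array 10, and Prkaca falls to 11.72 on array 4.

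The PKA subunits were all above background on every array. Of the 4 regulatory subunits, which hold the catalytic subunits inactive, 2 were higher and 0 lower (2 and 0 with limma's p under 0.05 before adjustment). The shares over all probesets were 7.61% higher and 7.87% lower, and 4 genes are too few for a statement about the role. Prkar1b, the RI-beta subunit known mainly from neurons, had the largest rise among the tested members. It was at 8.88, 8.07, 7.54, 8.87 and 8.27 in ShCtrl and at 9.73, 10.29, 10.29, 10.06 and 10.53 in ShBNIP3. The groups did not overlap, and the rise was 3.61-fold (log2 1.85, SE 0.25, limma adjusted p = 0.00030), at most 0.0014 with 1 array left out. Prkar2b, the RII-beta subunit of adipose tissue and brain, was at 8.05, 8.08, 7.83, 6.95 and 7.77 in ShCtrl and at 8.32, 8.39, 8.50, 8.36 and 8.25 in ShBNIP3. The groups did not overlap, and array 4 was the lowest. The rise of 1.54-fold (log2 0.63, SE 0.19, limma adjusted p = 0.043) was lost in 7 of 10 fits with 1 array left out (without array 3, 5, 6, 7, 8, 9 or 10, adjusted p at most 0.098), and without both arrays 4 and 10 it was 0.46 (SE 0.12, limma adjusted p = 0.020).

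The widely expressed regulatory subunits did not pass. Prkar1a ranged from 13.89 to 14.32 in ShCtrl and from 13.94 to 14.60 in ShBNIP3 (log2 0.13, 95% interval -0.16 to 0.43), and Prkar2a from 12.36 to 13.00 and from 12.61 to 13.70 (log2 0.29, 95% interval -0.15 to 0.74).

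The catalytic subunits had differences of opposite sign. Prkacb (C-beta) was at 13.05, 13.45, 13.14, 12.50 and 13.26 in ShCtrl and at 13.59, 13.97, 14.34, 14.24 and 13.11 in ShBNIP3, so that array 10 overlapped the controls. The rise was 1.70-fold (log2 0.77, SE 0.24, limma adjusted p = 0.046), lost in 8 of 10 fits with 1 array left out (all but those without array 2 or array 10, adjusted p at most 0.12), and 0.81 (SE 0.17, limma adjusted p = 0.0055) without arrays 4 and 10. Prkaca (C-alpha) was at 12.87, 12.87, 12.87, 11.72 and 12.97 in ShCtrl and at 12.20, 12.11, 11.91, 12.09 and 11.86 in ShBNIP3. Array 4 was the lowest of all 10 arrays, and the other 4 controls lay above every ShBNIP3 array. The difference was -0.63 (SE 0.22, limma adjusted p = 0.073). Without array 4 it was -0.86 (limma adjusted p = 0.00029), and without arrays 4 and 10 it was -0.82 (SE 0.12, limma adjusted p = 0.00038).

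Of the 14 anchoring proteins, 1 was higher and 0 lower (2 and 0 with limma's p under 0.05 before adjustment), and 8 were above background on every array. Among all probesets, 7.61% were higher and 7.87% lower. Akap7, which ties PKA to membranes and ion channels, was at 7.66, 7.43, 7.16, 7.10 and 7.25 in ShCtrl and at 7.76, 8.10, 7.47, 7.91 and 7.73 in ShBNIP3. The groups overlapped through array 8, and the rise of 1.39-fold (log2 0.47, SE 0.15, limma adjusted p = 0.049) was lost in 8 of 10 fits with 1 array left out (all but those without array 1 or array 8, adjusted p at most 0.12), and without arrays 4 and 10 (adjusted p = 0.085).

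Akap1, which anchors PKA at the outer mitochondrial membrane, was at 9.08, 9.15, 8.98, 9.86 and 8.86 in ShCtrl and at 9.24, 9.62, 9.84, 9.38 and 9.41 in ShBNIP3. Array 4 was the highest of all 10, and the other 4 controls lay below every ShBNIP3 array. The difference was 0.31 (SE 0.19, limma adjusted p = 0.33), and 0.50 (SE 0.15, limma adjusted p = 0.032) without arrays 4 and 10, called also without array 4 alone (adjusted p = 0.035). Akap9, a large scaffold of the Golgi and centrosome, had the same form, with 10.79 on array 4, 9.49 to 10.15 on the other controls and 10.27 to 10.75 in ShBNIP3. Its difference was 0.41 (SE 0.20, limma adjusted p = 0.22), and 0.54 (SE 0.17, limma adjusted p = 0.044) without arrays 4 and 10, called also without array 4 alone (adjusted p = 0.029). Akap10, which also binds PKA at mitochondria, ranged from 10.55 to 11.14 and from 10.79 to 11.31 (log2 0.25, 95% interval -0.05 to 0.56). Akap3, Akap4, Akap5 and Akap14 were at background on all arrays.

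Upstream and in the Epac branch, neither gene was called in limma (0 in either direction at an unadjusted p under 0.05). Gnas, the stimulatory G protein alpha subunit, whose locus gives several overlapping transcripts that 1 probeset cannot tell apart, ranged from 14.47 to 14.81 in ShCtrl and from 14.56 to 14.79 in ShBNIP3 (log2 -0.02, 95% interval -0.26 to 0.23). Rapgef3 (Epac1) lay around the background limit on both sides, 6.27 to 7.02 and 6.29 to 6.90.

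The CREB factors and coactivators were all above background on every array, and none of 5 was called in limma (1 higher and 0 lower at an unadjusted p under 0.05). Crem, a CREB relative that yields activators and the repressor ICER, was at 8.67, 9.14, 8.84, 10.12 and 9.16 in ShCtrl and at 10.02, 9.78, 10.33, 9.98 and 12.52 in ShBNIP3. Array 4 was the highest control and overlapped the ShBNIP3 range, array 10 was the highest of all, and the other 4 controls lay below every ShBNIP3 array. The difference was 1.34 (SE 0.46, limma adjusted p = 0.069). Without arrays 4 and 10 it was 1.08 (SE 0.16, limma adjusted p = 0.00047), and without array 4 or array 10 alone it was 1.58 (limma adjusted p = 0.030) and 0.85 (limma adjusted p = 0.040). Creb1 differed by -0.14 (95% interval -0.53 to 0.25), the histone acetyltransferase Crebbp by -0.10 (-0.44 to 0.23), and the CREB coactivators Crtc1 and Crtc2 by -0.04 and -0.14, with adjusted p from 0.57 to 0.93 over these 4 genes in limma.

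Within the groups, then, several members departed on the 2 arrays that stood apart, a measure that does not use the contrast between groups. On array 4, 6 members lay more than 1 above the mean of the other 4 ShCtrl arrays (Pde1a, Pde4b, Pde3a, Pde3b, Crem and Pde4d) and 2 more than 1 below (Adcy8 and Prkaca), against 3.04% and 2.91% of all probesets. On array 10, 6 lay more than 1 above the other ShBNIP3 arrays (Pde1a, Pde4d, Crem, Pde10a, Pde4b and Akap5, the last at background) and 1 below (Akap12), against 2.50% and 1.84% of all probesets. Pde1a, Pde4b, Pde4d and Crem were high on both. What set these arrays apart is not in the labels.

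**Figure D4:**
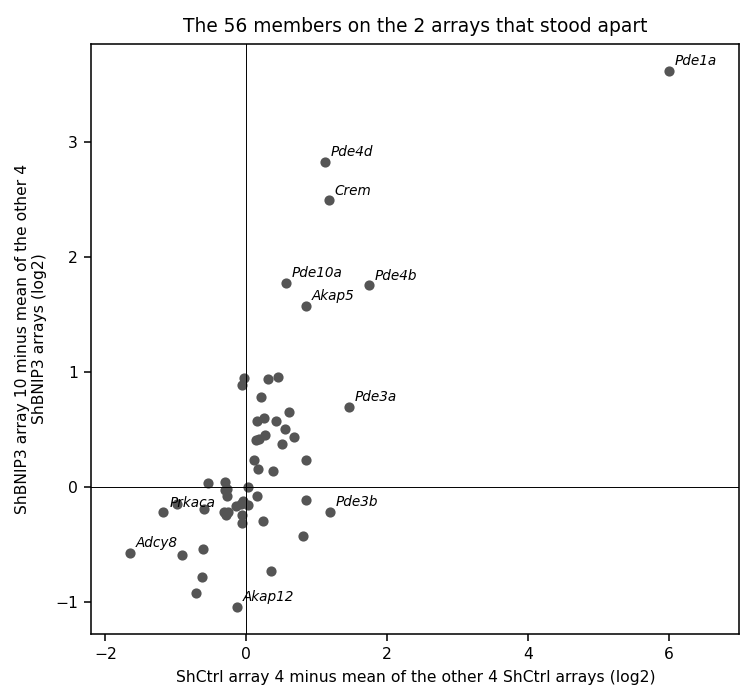
Each point is 1 of the 56 members, placed by its level on ShCtrl array 4 minus the mean of the other 4 ShCtrl arrays (horizontal axis, log2) and on ShBNIP3 array 10 minus the mean of the other 4 ShBNIP3 arrays (vertical axis, log2); members beyond 1 on either axis are named. Pde1a (6.00 and 3.62), Pde4b, Pde4d and Crem lie beyond 1 on both axes in the upper right.

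The other genes of the pathway were taken from 10 lists, with 167 of 184 genes measured, of which 8 were higher and 7 lower in ShBNIP3 (8.98% called, beside 15.5% of all probesets). Counts of single lists below stand beside 7.61% of all probesets higher and 7.87% lower. Receptors that raise cAMP through the stimulatory G protein were mostly undetected, with 29 of 36 at background on all arrays, and 1 was lower and 0 higher (3 and 1 with limma's p under 0.05 before adjustment). That was Pth1r, the receptor for parathyroid hormone and its related peptide, which fell 1.53-fold from 7.40 to 8.17 on the ShCtrl arrays to 6.97 to 7.51 (log2 -0.61, SE 0.17, limma adjusted p = 0.030). Its call was lost in 6 of 10 fits with 1 array left out (without array 1, 2, 5, 8, 9 or 10, at most 0.078). Receptors that lower cAMP had 25 of 29 at background on all arrays, with 1 lower and 0 higher (2 and 3 unadjusted). That was the cannabinoid receptor Cnr1, at 8.12, 8.17, 8.11, 6.21 and 7.84 in ShCtrl and at background in all ShBNIP3 samples (5.35 to 5.94), with no overlap, at least 1.98-fold lower (measured log2 -1.93, SE 0.32, limma adjusted p = 0.0015). Array 4 was its lowest control, as for Adcy8, and without arrays 4 and 10 the fall was at least 2.55-fold.

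Among 21 other G protein subunits and exchange factors, 2 rose and 2 fell. Gng10 (log2 0.99, SE 0.16, limma adjusted p = 0.0014) and Gnb5 (0.83, SE 0.22, adjusted p = 0.022) rose, and Gnb2 (-0.81, SE 0.12, adjusted p = 0.00060) and Ric8a, a chaperone of alpha subunits (-0.49, SE 0.14, adjusted p = 0.030), fell. The calls of Gnb5 (without array 1 or 9, at most 0.060) and Ric8a (without array 1, 3, 5, 7, 8 or 9, at most 0.076) were lost in fits with 1 array left out.

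PKA inhibitors and modulators had 2 of 10 higher and 0 lower (4 and 1 with limma's p under 0.05 before adjustment). Those higher were Rgs2 and Pja2, not the PKA inhibitors Pkia, Pkib and Pkig. Pkia and Pkib were at background on all arrays, and Pkig did not pass (log2 0.14, SE 0.19, limma adjusted p = 0.72). Rgs2, a regulator of G protein signalling, was at 6.54, 6.23, 6.47, 10.67 and 6.31 in ShCtrl and at 9.51, 10.20, 11.59, 11.63 and 12.42 in ShBNIP3. Array 4 overlapped the ShBNIP3 range and the other controls were under background. The measured difference was 3.83 (log2, SE 0.81, limma adjusted p = 0.0061), a mean that rests on 1 control above background. Without array 4 every control was at background and the rise was at least 21.7-fold, and at least 17.1-fold without arrays 4 and 10. Pja2, a ubiquitin ligase that acts on PKA regulatory subunits, rose 1.76-fold from 14.12 to 14.24 in ShCtrl to 14.90 to 15.17 in ShBNIP3 (log2 0.81, SE 0.10, limma adjusted p = 0.00021).

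Anchoring proteins without an Akap symbol had 1 of 10 higher, Gskip (log2 0.75, SE 0.15, limma adjusted p = 0.0041), and 1 lower, the membrane linker ezrin, Ezr (-0.78, SE 0.19, adjusted p = 0.014). Other cAMP effectors had 1 of 17 higher, the Epac target Rap1b (log2 0.52, SE 0.10, limma adjusted p = 0.0046), and 1 lower, the cAMP-binding Popdc2 (-1.04, SE 0.25, adjusted p = 0.014, at least 1.33-fold, with ShBNIP3 at background). Without arrays 4 and 10 this list had 1 higher and 2 lower, Abcc4 among the lower (log2 -1.21, limma adjusted p = 0.0013). Over all arrays Abcc4 was not called (-0.79, adjusted p = 0.29), with 8.40 on array 4 against 10.49 to 11.37 on the other controls. None of 4 salt-inducible kinases and CREB partners was called in limma (0 in either direction at an unadjusted p under 0.05). Sik1, under the background limit on some arrays of each group, was called lower without arrays 4 and 10 (log2 -0.57, limma adjusted p = 0.030). It lay 1.11 and 1.05 above the other arrays of its group on these 2. Calmodulin and store-operated calcium entry genes, listed because calcium acts on Adcy8 and Pde1a, had 1 of 8 higher and 0 lower (1 and 0 unadjusted). That was the channel Orai2 (log2 0.83, SE 0.24, limma adjusted p = 0.031), whose call was lost without array 2, 3, 4, 7, 8 or 9 (at most 0.081). In the cGMP list 1 of 13 was lower and 0 higher (2 and 0 unadjusted), the natriuretic peptide clearance receptor Npr3 (log2 -0.67, SE 0.21, limma adjusted p = 0.043), lost without array 1, 2, 3, 5, 8, 9 or 10 (at most 0.11).

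Genes known to respond to CREB had 1 of 19 higher and 0 lower (1 and 2 with limma's p under 0.05 before adjustment). That was the GTPase Gem, at 5.30, 6.25, 6.10, 7.49 and 6.02 in ShCtrl and at 6.99, 7.70, 7.65, 8.06 and 9.17 in ShBNIP3 (log2 1.68, SE 0.41, limma adjusted p = 0.014). Arrays 4 and 10 were its highest in each group, array 4 overlapped the ShBNIP3 range, and the other 4 controls were under the background limit. Without array 4 the rise was at least 2.43-fold, and at least 1.95-fold without arrays 4 and 10. In this list 7 of 19 genes lay more than 1 above the other arrays of the group on array 4 and 7 on array 10, of which 5 on both, and 0 more than 1 below on either. The shares of all probesets more than 1 above were 3.04% on array 4 and 2.50% on array 10. Nr4a1, Nr4a2 and Nr4a3 are in each count of genes above, so these counts are no measure of how often this happens. The other genes counted were Dusp1 and Gem on both arrays, Junb and Ppargc1a on array 4, and Fos and Bdnf on array 10. Ppargc1a was at background on all arrays. Not all listed genes departed so far. Egr1 differed by 0.06 on array 4 and -0.38 on array 10, and Per1 by 0.03 and 0.56. The nuclear receptor Nr4a1, named with Nr4a2 and Nr4a3 after their values were seen, was at 13.09 on array 4 against 7.65 to 8.06 on the other controls, and at 15.29 on array 10 against 7.51 to 8.85 on the other ShBNIP3 arrays. Nr4a3 was at 11.93 and 9.95 on these arrays, with the others between 4.58 and 5.64, and Nr4a2 at 12.03 and 14.55, with the others between 10.13 and 11.22. None of the 3 was called between groups, with limma adjusted p of 0.82, 0.28 and 0.89 for Nr4a1, Nr4a2 and Nr4a3. Without arrays 4 and 10, Nr4a2 was called higher (log2 0.84, limma adjusted p = 0.00052) and the other two were not.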

How the data were processed

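RNA of 10 samples (5 ShCtrl, 5 ShBNIP3, grouped by title) was labelled with the GeneChip WT Plus kit and measured on 1 array each. The deposited values are log2 expression values that the authors made by sst-rma normalization, per the labels' descriptions. The Transcriptome Analysis Console is named in the submitters' processing notes; its version and a genome build are not given in the sources used here. Values were not transformed again. Precision is limited by the number of arrays. The 1646 control probesets were left out, and 23188 were fitted in limma 3.58.1 (lmFit and eBayes, R 4.3.3) with Benjamini-Hochberg adjustment over all of them and a threshold of 0.05. The fit was tested on simulated data with known changes. A group is at background where every array lies under the 95th percentile of its 23 antigenomic probesets, and a fold against it is given as "at least".

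Symbols come from the platform annotation, and all 56 members' Entrez identifiers matched RefSeq (GRCr8). Members and the 16 lists were chosen with earlier results of these data known. Named are every called member, the others by role, and at most 4 called genes of each list by size. Arrays were left out singly and as the pair 4 and 10, and variance model, array weights, normalization, centring, a filter on dim probesets and a 2-fold threshold were varied.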

Additional observations from a re-analysis of the deposited data

Results flagged for a closer look

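In groups of 5 arrays, a value was singled out where its gap to the nearest other array took more than 0.71 of the group's range; chance gives about 1 group in 20. Of the members, 112 groups were looked at and 15 values stood out. With the other pathway genes named, there were 24 values in all, of which 6 are of Nr4a1, Nr4a2 and Nr4a3, named after their values were seen and so no measure of how often this happens. Of the remaining 18, ShCtrl array 4 held 11 and ShBNIP3 array 10 held 4.

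On ShCtrl array 4 the highest values of the group were those of Pde1a (11.99, next 6.33), Pde3a (6.94, next 5.58), Pde3b (7.46, next 6.48), Pde4b (13.15, next 11.61) and Akap1 (9.86, next 9.15) among the members, and of Rgs2 (10.67), Nr4a1 (13.09), Nr4a2 (12.03) and Nr4a3 (11.93) among the other pathway genes. The lowest were those of Adcy8 (9.01, next 10.39), Prkaca (11.72, next 12.87), Prkar2b (6.95, next 7.77), Pde6d (9.40, next 9.97) and the receptor Cnr1 (6.21). On ShBNIP3 array 10 the highest values were those of Crem (12.52, next 10.33), Pde4d (9.67, next 7.31), Pde10a (7.76, next 6.31), Prkar2a (13.70, next 12.88), Nr4a1 (15.29), Nr4a2 (14.55) and Nr4a3 (9.95). On the other arrays, Akap3 was low on ShCtrl array 1 (3.53) and Akap4 high on ShCtrl array 5 (5.02), both at background, and Gnb5 was high on ShCtrl array 5 (9.07). What sets arrays 4 and 10 apart was not tested.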

How the results depend on the processing

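No paired analysis was possible because the groups share no replicate numbers. Counting Adcy8 among those lower, and against 4 members higher and 5 lower, fits with 1 array left out gave 1 to 5 higher and 4 to 6 lower, and for the other pathway genes (8 and 7) they gave 6 to 10 and 4 to 9. Without ShCtrl array 4 and ShBNIP3 array 10 there were 7 and 8 members and 14 and 15 pathway genes. Leaving Adcy8 out, the members were 4 higher and 4 lower over all arrays, and 7 and 7 without arrays 4 and 10. Array weights gave 12 pathway genes lower. With a 2-fold change required, 1 member was higher and 2 lower, Adcy8 among these, and 2 pathway genes each way. Trended variance, quantile normalization, median centring and leaving out dim probesets kept every count within 1.5 times, and Bnip3 and the calls of Adcy2, Adcy3, Pde4a and Prkar1b held in all 16 fits. Of the same 16, 8 lost the call of Pde7a, 8 that of Prkacb, 7 that of Prkar2b and 12 that of Akap7, and no called difference changed sign in any. The cause of these losses was not tested. With the highest background probeset as the limit, 24 members in place of 28 were above it on all arrays. Every member had 1 probeset, so averaging several was not run. Of the 56 members, 28 were under the limit on some or all arrays. For the 18 under it on all arrays, measured differences lie within the background range. Those of the 10 under it on some arrays are uncertain in size.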
